A study of Bos taurus with 18 samples.

Results

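The genes described here are the serpins and the plasminogen system: every gene whose single symbol in the array's annotation is SERPIN followed by a clade letter from A to I and a number, together with PLAT, PLAU, PLAUR, PLG, A2M, TFPI and TFPI2. The rule picks genes by name, and it was set with earlier results of these data known. It found 34 genes among the 18010 genes that the array names by a single symbol. The members were measured in 4 compartments of the ovary of non-pregnant cows. Theca, the layer around the follicle that makes androgens, was dissected from healthy antral follicles smaller than 5 mm, and each of its 6 arrays held 1 follicle of 1 animal. The other 3, interstitial stroma, the stroma close to follicles, and the dense connective tissue beneath the surface called tunica albuginea, were cut by laser from frozen, stained sections of cortex. These groups had 4 arrays each, and each array held RNA pooled from different animals. No group received a treatment, and the sources used here give neither cow ages nor the number of animals in a pool. The theca also had its RNA extracted with another kit, so in comparisons with theca the compartment, the collection and the kit cannot be told apart.

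Serpins are proteins that mostly trap serine proteases: the protease cuts an exposed loop, the serpin changes shape, and both stay locked together. A few serpins inhibit no protease and act as hormone carriers or chaperones. Plasminogen is the precursor of plasmin, which dissolves fibrin and helps to break down matrix, and it is activated by tissue plasminogen activator (PLAT) and by urokinase (PLAU) bound to its receptor (PLAUR). In the ovary this system is best known around ovulation, when the follicle wall is opened, and in the remodelling of tissue as follicles grow or regress. A2M is a large inhibitor that traps proteases of all classes, and the Kunitz-type inhibitors TFPI and TFPI2 act on coagulation proteases and on plasmin.

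The values are log2 signals normalized by the authors, so a difference of 1 is a 2-fold change. Every array had a median of 4.1, and arrays correlated with the rest of their group at a mean r that lay between 0.956 and 0.974. The table has no detection call. A signal under 4.1 can be background, a difference from a group under 4.1 is then a lower limit, and levels of different genes are not compared, since each gene has its own probes. The labels fitted the theca markers: the mean of 5 measured genes (CYP17A1, INSL3, LHCGR, HSD3B1 and CYP11A1) ranged from 8.9 to 10.1 in theca and from 2.88 to 3.4 in the laser-captured arrays. A source label that names thecal tissue for every sample was not used. The 3 laser-captured groups were not checked against defining markers of their own.

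Of the 34 members, 14 had a compartment mean above 4.1 and 20 did not. A moderated F test over the 4 compartments (limma, adjusted over all clusters of the array) called 11 members, against 36.4% of the 26773 clusters of the whole table. The share of members called was thus close to the background. Of the 11, 7 had a compartment mean above 4.1 and differed by at least 1 log2 unit between compartments. These were SERPING1, TFPI2, SERPINC1, A2M, TFPI, PLAU and SERPINF1. SERPING1, TFPI2 and A2M were lower in theca than in each laser-captured compartment, SERPINC1 and PLAU were higher in theca than in each of them, TFPI was higher in tunica albuginea than in both kinds of stroma, and SERPINF1 was higher in stroma close to follicles than in theca. The other called members were PLAT and SERPINB1, with smaller differences, and SERPINA6 and SERPINI2, with no mean above 4.1.

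**Figure D1:**
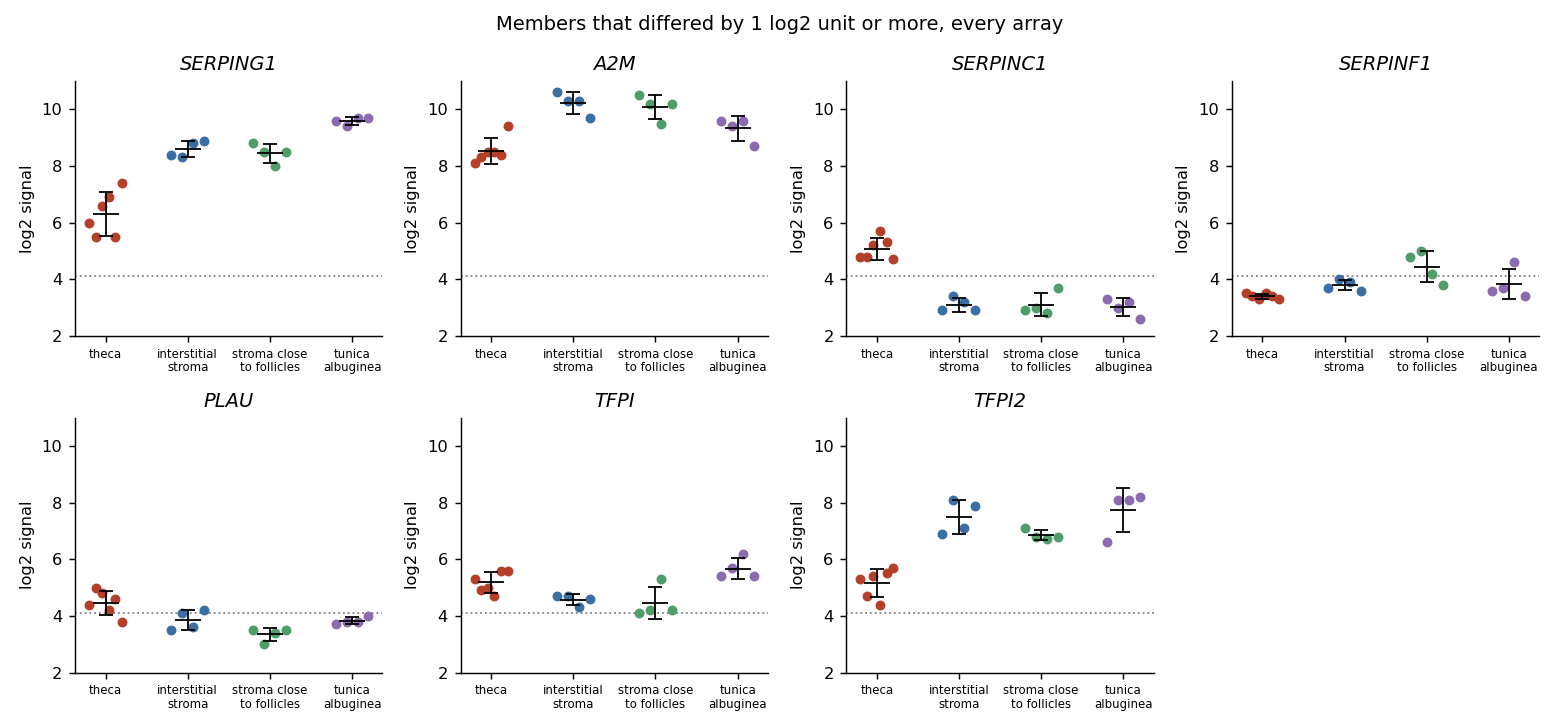
Log2 signal (vertical axis) of the 7 members with the largest differences in every array, by compartment; points are arrays, the bars are the mean and SD, and the dotted line is the array median of 4.1. Theca lies below all laser-captured arrays for SERPING1 and TFPI2 and above all of them for SERPINC1.

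Among the activators, urokinase (PLAU) was highest in theca. Its log2 signal was 4.4, 5.0, 4.8, 4.2, 4.6 and 3.8 in the 6 theca arrays, 3.5, 4.1, 3.6 and 4.2 in interstitial stroma, 3.5, 3.0, 3.4 and 3.5 in stroma close to follicles and 3.7, 3.8, 3.8 and 4.0 in tunica albuginea. All theca values lay above those of stroma close to follicles, and they overlapped with the other groups. PLAU was higher in theca than in stroma close to follicles by 1.12 ± 0.20 (SE) log2 units (limma adjusted p = 0.00038). It was higher than in interstitial stroma by 0.62 ± 0.20 (adjusted p = 0.029) and than in tunica albuginea by 0.64 ± 0.20 (adjusted p = 0.02). The call against interstitial stroma was lost without theca replicate 2, 3 or 5 or interstitial replicate 1 or 3 (adjusted p up to 0.11), in a fit of these 2 compartments alone, and with arrays centred on their 75th percentile. The call against tunica albuginea was lost without tunica replicate 1 (adjusted p = 0.055). All 3 laser-captured means of PLAU lay below 4.1. In bulk tissue, fewer cells of a type and less RNA per cell cannot be told apart, here and in every result below.

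Tissue plasminogen activator (PLAT), which is made by endothelial cells among others, was lowest in stroma close to follicles. Its log2 signal ranged from 5.5 to 6.3 in theca, from 4.7 to 5.9 in interstitial stroma, from 4.5 to 5.2 in stroma close to follicles and from 5.6 to 6.0 in tunica albuginea. The values in stroma close to follicles lay below all those of theca and tunica albuginea and overlapped with interstitial stroma. Theca exceeded stroma close to follicles by 0.95 ± 0.21 log2 units (adjusted p = 0.0021). Tunica albuginea exceeded it by 0.90 ± 0.23 (adjusted p = 0.036), a call lost without stroma close to follicles replicate 1, 2 or 4 or tunica replicate 2, 3 or 4 (adjusted p up to 0.1). It was lost as well with array weights by compartment (adjusted p = 0.061) and in a fit of the 12 laser-captured arrays alone (adjusted p = 0.066). Theca and tunica albuginea differed by 0.05 (95% interval -0.39 to 0.49). Plasminogen itself (PLG), which the liver makes, and the urokinase receptor PLAUR stayed below 4.1 in all compartment means, with array values of 2.4 to 3.0 and 3.0 to 4.2, and neither was called by the F test (adjusted p = 0.5 for both).

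Endothelial markers were mostly higher in theca than in the laser-captured groups, and their list mean was lowest in tunica albuginea. The mean log2 signal of 10 endothelial markers ranged from 6.19 to 6.51 in theca, from 4.45 to 5.56 in interstitial stroma, from 4.33 to 4.91 in stroma close to follicles and from 4.06 to 4.3 in tunica albuginea. Of the 10, 8 were higher and none lower in theca than in stroma close to follicles. In tunica albuginea against stroma close to follicles, where PLAT was higher, 2 of the 10 were lower and none higher. In tunica albuginea, where the mean of PLAT was 5.80 against 5.85 in theca, 6 of the 10 endothelial markers had means below 4.1, among them PECAM1 (3.40), CDH5 (3.52) and VWF (3.35). Others were above it there, with EMCN at 7.0, ERG at 6.33 and KDR at 4.78. The list mean of 10 immune markers was 4.96 to 5.47 in theca against 3.98 to 4.97 in the laser-captured arrays. Of the 10, 5 were higher in theca than the laser-captured mean and none lower; PTPRC had its highest mean in tunica albuginea (4.95), CSF1R in stroma close to follicles and CD3E in interstitial stroma. The part of these cells in the differences of the members was not tested.

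Of the members that act on plasmin or its activators, SERPINE2 (protease nexin 1, which inhibits thrombin, urokinase and plasmin) was well above the array median in every array, at 8.2 to 9.3 in theca, 8.8 to 9.5 in interstitial stroma, 9.1 to 9.2 in stroma close to follicles and 9.2 to 9.4 in tunica albuginea. The F test did not call it (adjusted p = 0.16). Against the laser-captured mean theca was lower by -0.39 ± 0.15 log2 units (adjusted p = 0.038). This call was lost without any one of 10 arrays, theca replicates 2, 3, 4 and 5, interstitial replicates 1 and 3, stroma close to follicles replicates 2 and 4 and tunica replicates 3 and 4 (adjusted p up to 0.13). Against tunica albuginea the difference was -0.49 ± 0.19 (adjusted p = 0.051). Theca arrays spread more (SD 0.44, n = 6) than those of stroma close to follicles (SD 0.06, n = 4). The plasmin inhibitor SERPINF2, SERPINB2 (plasminogen activator inhibitor 2) and SERPINI1 (neuroserpin, an inhibitor of PLAT) had no mean above 4.1.

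The broad protease inhibitor A2M was lowest in theca. Its log2 signal was 8.1, 8.3, 8.5, 8.5, 8.4 and 9.4 in theca, 10.6, 10.3, 10.3 and 9.7 in interstitial stroma, 10.5, 10.2, 9.5 and 10.2 in stroma close to follicles and 9.6, 9.4, 9.6 and 8.7 in tunica albuginea. Theca lay below both kinds of stroma in every array and overlapped with tunica albuginea. The log2 difference of theca was -1.69 ± 0.25 from interstitial stroma (adjusted p = 7e-05) and -1.57 ± 0.25 from stroma close to follicles (adjusted p = 0.00013). From tunica albuginea it was -0.79 ± 0.25 (adjusted p = 0.022), and that call was lost without tunica replicate 1, 2 or 3 (adjusted p up to 0.07). Tunica albuginea lay between theca and stroma. Its difference from interstitial stroma was -0.90 ± 0.28 (adjusted p = 0.14) and from stroma close to follicles -0.78 ± 0.28 (adjusted p = 0.16), and neither was called. The mean of 7 smooth muscle and pericyte markers ran in the same order for stroma, at 5.99 to 6.91 in interstitial stroma and 6.17 to 6.37 in stroma close to follicles, against 5.47 to 6.0 in theca and 5.41 to 5.99 in tunica albuginea. The list was split: MYH11, CNN1, DES and MYOCD were lower in theca than the laser-captured mean, by -2.30 to -2.01, while RGS5 (3.15), NOTCH3 (1.48) and ABCC9 (0.96) were higher. Their part in the result was not tested. Of the 10 endothelial markers, 8 were higher in theca than that mean and none lower.

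TFPI2, a Kunitz-type inhibitor of plasmin and other matrix-degrading proteases, was also lowest in theca. The log2 signals were 5.3, 4.7, 5.4, 4.4, 5.5 and 5.7 in theca, 6.9, 8.1, 7.1 and 7.9 in interstitial stroma, 7.1, 6.8, 6.7 and 6.8 in stroma close to follicles and 6.6, 8.1, 8.1 and 8.2 in tunica albuginea. No theca array reached the lowest laser-captured array. Theca differed by -2.33 ± 0.32 log2 units from interstitial stroma (adjusted p = 2.9e-05), by -1.68 ± 0.32 from stroma close to follicles (adjusted p = 0.00059) and by -2.58 ± 0.32 from tunica albuginea (adjusted p = 7.6e-06). Among the laser-captured groups no difference passed. Tunica albuginea against stroma close to follicles gave 0.90 ± 0.35 (adjusted p = 0.2), and adjusted p = 0.025 without tunica replicate 1, the low array of its group, where the difference was 1.28.

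Inhibitors of coagulation followed other patterns. Antithrombin (SERPINC1), the heparin-dependent inhibitor of thrombin that is mainly known from liver, gave 4.8, 4.8, 5.2, 5.7, 5.3 and 4.7 in theca. In interstitial stroma it gave 2.9, 3.4, 3.2 and 2.9, in stroma close to follicles 2.9, 3.0, 2.8 and 3.7, and in tunica albuginea 3.3, 3.0, 3.2 and 2.6. All theca arrays were above 4.1 and all laser-captured arrays below it, so the differences are lower limits where the low signal is background. They were 1.98 ± 0.21 log2 units from interstitial stroma (adjusted p = 2e-06), 1.98 ± 0.21 from stroma close to follicles (adjusted p = 1.6e-06) and 2.06 ± 0.21 from tunica albuginea (adjusted p = 9.8e-07). The laser-captured groups differed from each other by at most 0.08 in their means. Of 6 granulosa cell markers, 5 were higher in theca than the laser-captured mean and 1, FOXL2, was lower by -0.51 ± 0.14 (adjusted p = 0.0065). The mean over the 6 was 4.23 to 4.73 in theca against 3.13 to 3.85 elsewhere. In theca INHA had a mean of 7.52, while FSHR, AMH and HSD17B1 lay near the array median, at 4.38 to 4.40. CYP19A1 (2.98) and FOXL2 (2.85) were below 4.1 there. The mean of 8 markers of red blood cells and platelets was 3.21 to 3.46 in theca and 3.1 to 3.6 elsewhere, with all 8 means below 4.1 in each compartment. The part of granulosa cells in the difference was not tested. SERPIND1 (heparin cofactor II), which inhibits thrombin too, lay at 3.8 to 4.6 with no difference called (F test adjusted p = 0.53).

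TFPI, which blocks the complex of tissue factor and factor VII, was higher in tunica albuginea than in both kinds of stroma. It stood at 5.3, 4.9, 5.0, 4.7, 5.6 and 5.6 in theca, at 4.7, 4.7, 4.3 and 4.6 in interstitial stroma, at 4.1, 4.2, 5.3 and 4.2 in stroma close to follicles and at 5.4, 5.7, 6.2 and 5.4 in tunica albuginea. All tunica arrays lay above all arrays of both kinds of stroma and overlapped with theca. Tunica albuginea exceeded stroma close to follicles by 1.22 ± 0.26 log2 units (adjusted p = 0.012), a call lost in a fit of these 2 compartments alone, and interstitial stroma by 1.10 ± 0.26 (adjusted p = 0.04). The last call was fragile: it was lost without any one of the 4 interstitial arrays, tunica replicates 1, 2 and 3, or theca replicates 1 and 3 (adjusted p up to 0.14), and in a fit of the 12 laser-captured arrays alone. Theca exceeded stroma close to follicles by 0.73 ± 0.24 (adjusted p = 0.026). Without stroma close to follicles replicate 3, the high array of its group, this difference was 1.02 (adjusted p = 0.0015). The call was lost without replicate 1, 2 or 4 of that group or theca replicate 5 or 6 (adjusted p up to 0.092), in a fit of these 2 compartments alone, and with arrays centred on the 75th percentile. The endothelial list mean given above was lowest in tunica albuginea, where the mean of TFPI was highest.

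SERPING1 (C1 inhibitor), which blocks the first proteases of complement and of the contact system, had the largest difference of any member. Theca arrays read 6.0, 5.5, 6.6, 6.9, 5.5 and 7.4. Interstitial stroma read 8.4, 8.3, 8.8 and 8.9, stroma close to follicles 8.8, 8.5, 8.0 and 8.5, and tunica albuginea 9.6, 9.4, 9.7 and 9.7. Every theca array lay below every laser-captured array, and every tunica array above every array of stroma. Theca spread over 1.9 log2 units (mean 6.32, SD 0.78, n = 6), tunica albuginea over 0.3 (mean 9.60, SD 0.14, n = 4). Theca differed by -3.28 ± 0.30 from tunica albuginea (adjusted p = 2.4e-07), a 9.74-fold lower signal, by -2.28 ± 0.30 from interstitial stroma (adjusted p = 1.9e-05) and by -2.13 ± 0.30 from stroma close to follicles (adjusted p = 3.4e-05). Tunica albuginea exceeded stroma close to follicles by 1.15 ± 0.33 (adjusted p = 0.063) and interstitial stroma by 1.0 ± 0.33 (adjusted p = 0.17). Neither passed over all clusters. The arrays did not overlap, but the share of all clusters that separate in this way was not counted. The difference from stroma close to follicles passed without theca replicate 2, 5 or 6 (adjusted p down to 0.024). In a fit of the 12 laser-captured arrays alone both passed, with adjusted p = 0.0057 for stroma close to follicles and 0.024 for interstitial stroma, and also in fits of the 2 compartments compared (0.016 and 0.032). In the fit of all 18 arrays, which did not call SERPING1 here, clusters called higher in tunica albuginea than in stroma close to follicles made up 1.85% of the table. The share called in the smaller fits is not given here.

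The serpins of clade B act mostly inside cells. SERPINB6, an intracellular inhibitor of serine proteases such as cathepsin G, lay at 7.5 to 8.3 in theca and 8.0 to 8.6 elsewhere, with no difference called (F test adjusted p = 0.21). SERPINB1, an inhibitor of neutrophil proteases, was higher in theca (6.1 to 6.6) than in stroma close to follicles (5.8 to 5.9) by 0.51 ± 0.12 log2 units (adjusted p = 0.0033), and no other pair passed. Its second, dimmer cluster had the same lowest group, at 3.22 against 3.62 to 3.80 (F test adjusted p = 0.036). SERPINB8, known as an inhibitor of the protease furin, had means of 5.78 in theca, 5.72 in interstitial stroma, 5.20 in stroma close to follicles and 5.65 in tunica albuginea (F test adjusted p = 0.2). SERPINB9, the inhibitor of granzyme B, had its highest mean, 3.88, in theca. It was called against the laser-captured mean (0.41 ± 0.15, adjusted p = 0.04), a call lost without any one of 11 arrays (adjusted p up to 0.12): theca replicates 3, 4, 5 and 6, interstitial replicates 1 and 2, stroma close to follicles replicates 1, 2 and 4 and tunica replicates 2 and 4.

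**Figure D2:**
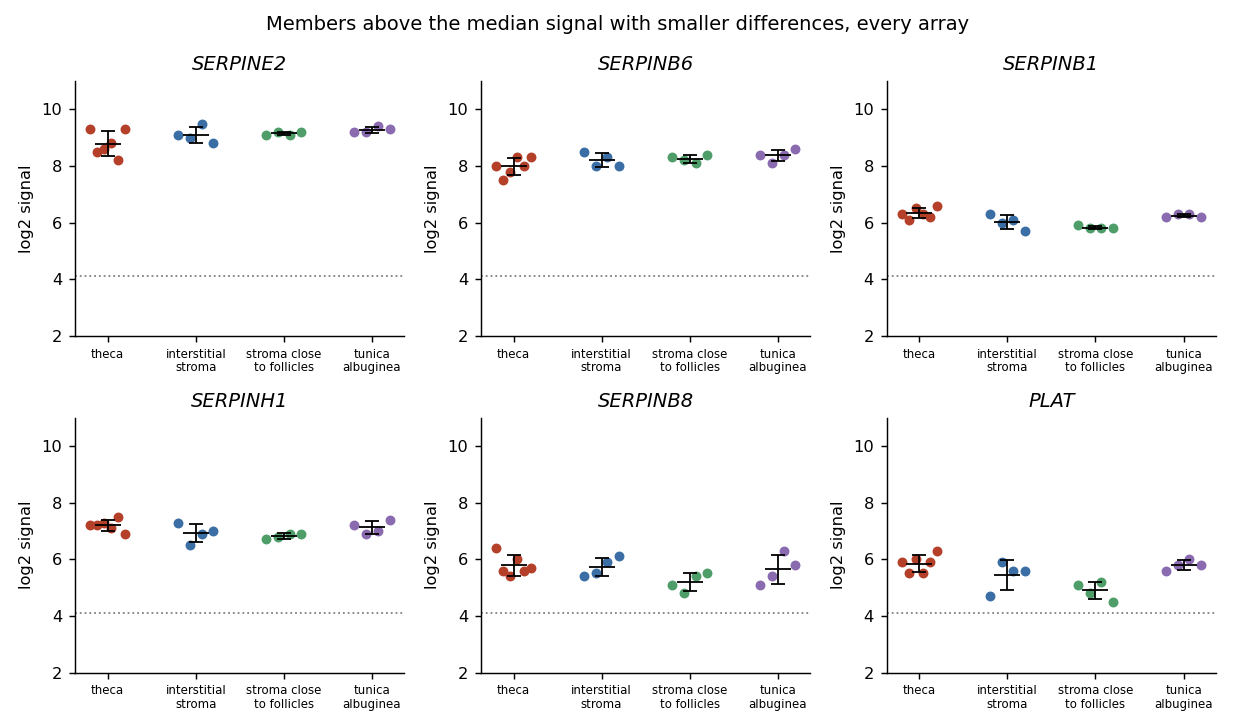
Log2 signal (vertical axis) of 6 members above the array median with smaller differences, in every array by compartment; bars are the mean and SD, and the dotted line is 4.1. SERPINE2 and SERPINB6 overlap between theca and the laser-captured groups, and PLAT in stroma close to follicles lies below theca and tunica albuginea.

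Among serpins that inhibit no protease, SERPINF1 (pigment epithelium-derived factor, known for restraining vessel growth) was near the array median. It gave 3.5, 3.4, 3.3, 3.5, 3.4 and 3.3 in theca, 3.7, 4.0, 3.9 and 3.6 in interstitial stroma, 4.8, 5.0, 4.2 and 3.8 in stroma close to follicles and 3.6, 3.7, 4.6 and 3.4 in tunica albuginea. Only stroma close to follicles had a mean above 4.1, and its arrays lay above all theca arrays. Theca was lower than that group by -1.05 ± 0.22 log2 units (adjusted p = 0.0015). Stroma close to follicles and interstitial stroma differed by 0.65 ± 0.24 (adjusted p = 0.45). The mean of 7 oocyte markers was 4.13 to 5.74 in stroma close to follicles against 3.06 to 3.3 in theca, with 6 of the 7 lower in theca and none higher, and their part in the result was not tested. SERPINH1 (HSP47, the chaperone of procollagen) lay at 6.9 to 7.5 in theca and 6.5 to 7.4 elsewhere, and no difference was called (F test adjusted p = 0.15). SERPINA6 (corticosteroid-binding globulin) had a tunica mean of 3.88 against 3.40 to 3.47 elsewhere. It differed between theca and tunica albuginea by -0.41 ± 0.12 (adjusted p = 0.011). This call was lost with the replicate number as a block in the fit (adjusted p = 0.052), where the comparison rests on theca replicates 1 to 4. The F test call of SERPINA6 was lost without tunica replicate 1 (adjusted p = 0.062).

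The 20 members without a mean above 4.1 had array values from 1.4 to 4.4, and their compartment means differed by 0.09 to 0.51 log2 units. They were PLAUR, PLG, SERPINA1 (alpha-1-antitrypsin), SERPINA6, SERPINA7 (thyroxine-binding globulin), SERPINA10, SERPINA11, SERPINA12 (vaspin), SERPINA14 (the uterine serpin of ruminants), SERPINB2, SERPINB4, SERPINB5 (maspin), SERPINB7, SERPINB9, SERPINB10, SERPINB12, SERPINE3, SERPINF2, SERPINI1 and SERPINI2. Of these the F test called SERPINA6 and SERPINI2. SERPINI2 was lower in theca (2.0 to 2.4) than in tunica albuginea (2.5 to 2.8) by -0.50 ± 0.11 (adjusted p = 0.0024), at signals that background can give. In the RefSeq gene order of assembly ARS-UCD2.0, 6 SERPINA members lie in 1 run and 5 SERPINB members in another, and none of these 11 had a mean above 4.1. In a separate run, SERPINB6 and SERPINB1 were above it and SERPINB9, which lies between them, was not. SERPINF1 and SERPINF2 are separated by 1 gene, and SERPINF1 alone had a mean above 4.1.

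**Figure D3:**
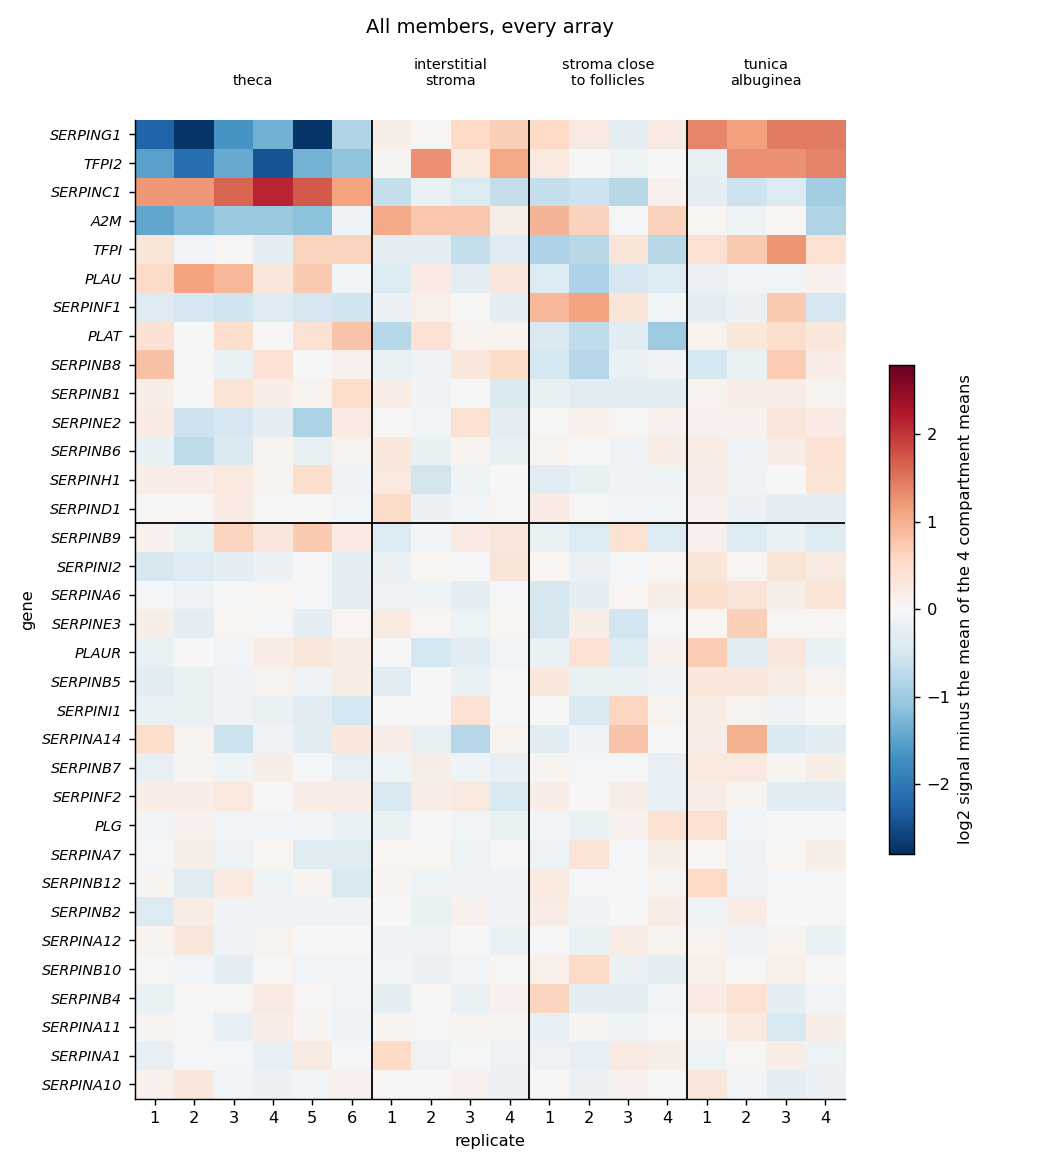
All 34 members (rows) in all 18 arrays (columns, by compartment and replicate); colour is the log2 signal minus the mean of that gene's 4 compartment means. Members above the horizontal line had a compartment mean above 4.1; SERPING1, TFPI2 and A2M are low and SERPINC1 is high across the theca columns.

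In theca against interstitial stroma, 2 members were higher (SERPINC1, PLAU) and 3 lower (SERPING1, TFPI2, A2M) of 34. Over all clusters 14.4% were higher and 14.6% lower. With arrays centred on the 75th percentile the split was 1 higher and 4 lower, as PLAU was lost and SERPINI2 was gained. Against stroma close to follicles, 5 were higher (SERPINC1, PLAU, PLAT, TFPI, SERPINB1) and 4 lower (SERPING1, A2M, TFPI2, SERPINF1), where 15.4% and 15.6% of clusters were called. Centred, this split was 4 and 5. Against tunica albuginea, 2 were higher (SERPINC1, PLAU) and 5 lower (SERPING1, TFPI2, A2M, SERPINI2, SERPINA6), beside 16.3% and 18.1% of clusters. Centred, it was 2 and 9, with SERPINB5, SERPINB6, SERPINB7 and SERPINE2 added. That centring moved the median difference of all clusters against tunica albuginea from -0.05 to -0.16. These 3 comparisons share the theca arrays. The median difference of the members was 0.03, 0.0 and -0.14 in them, against -0.02, -0.03 and -0.05 over all clusters.

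When theca was set against the mean of the 3 laser-captured groups, 5 members were higher in theca (SERPINC1, PLAU, PLAT, SERPINB9, SERPINB1) and 7 lower (SERPING1, TFPI2, A2M, SERPINF1, SERPINE2, SERPINI2, SERPINI1), where 19.6% of clusters were higher and 22.2% lower. Centred on the 75th percentile, 2 were higher and 8 lower, as PLAT, SERPINB1 and SERPINB9 were lost and SERPINB6 was gained. The PLAT call (0.47 ± 0.16, adjusted p = 0.028) was also lost without theca replicate 1, 3, 5 or 6 (adjusted p up to 0.082). The SERPINI1 call (-0.33 ± 0.12, adjusted p = 0.035) was lost without theca replicate 1, 5 or 6, interstitial replicate 3 or tunica replicate 1 (adjusted p up to 0.09). With the replicate number as a block in the limma fit, PLAT and SERPINI1 (adjusted p = 0.17 for both), SERPINB9 (0.12), SERPINB1 (0.066) and SERPINE2 (0.06) were lost. Replicates 5 and 6 occur only in theca, so in the blocked fit the comparison rests on theca replicates 1 to 4. SERPINB6 was gained there (adjusted p = 0.03). Of the 12 calls, 4 reached 1 log2 unit: SERPING1 (-2.57 ± 0.23), TFPI2 (-2.20 ± 0.25), SERPINC1 (2.01 ± 0.17) and A2M (-1.35 ± 0.20).

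Among laser-captured compartments few members passed, as did few clusters. Tunica albuginea exceeded interstitial stroma for TFPI alone, and no member was lower, where 0.945% of clusters were higher and 0.575% lower. Against stroma close to follicles, TFPI and PLAT were higher in tunica albuginea and none lower, beside 1.85% and 1.95% of clusters. Between stroma close to follicles and interstitial stroma limma called 0 of 34 members, with 3 at an unadjusted p below 0.05. Over all clusters, 0.0336% were higher and 0% lower there.

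**Figure D4:**
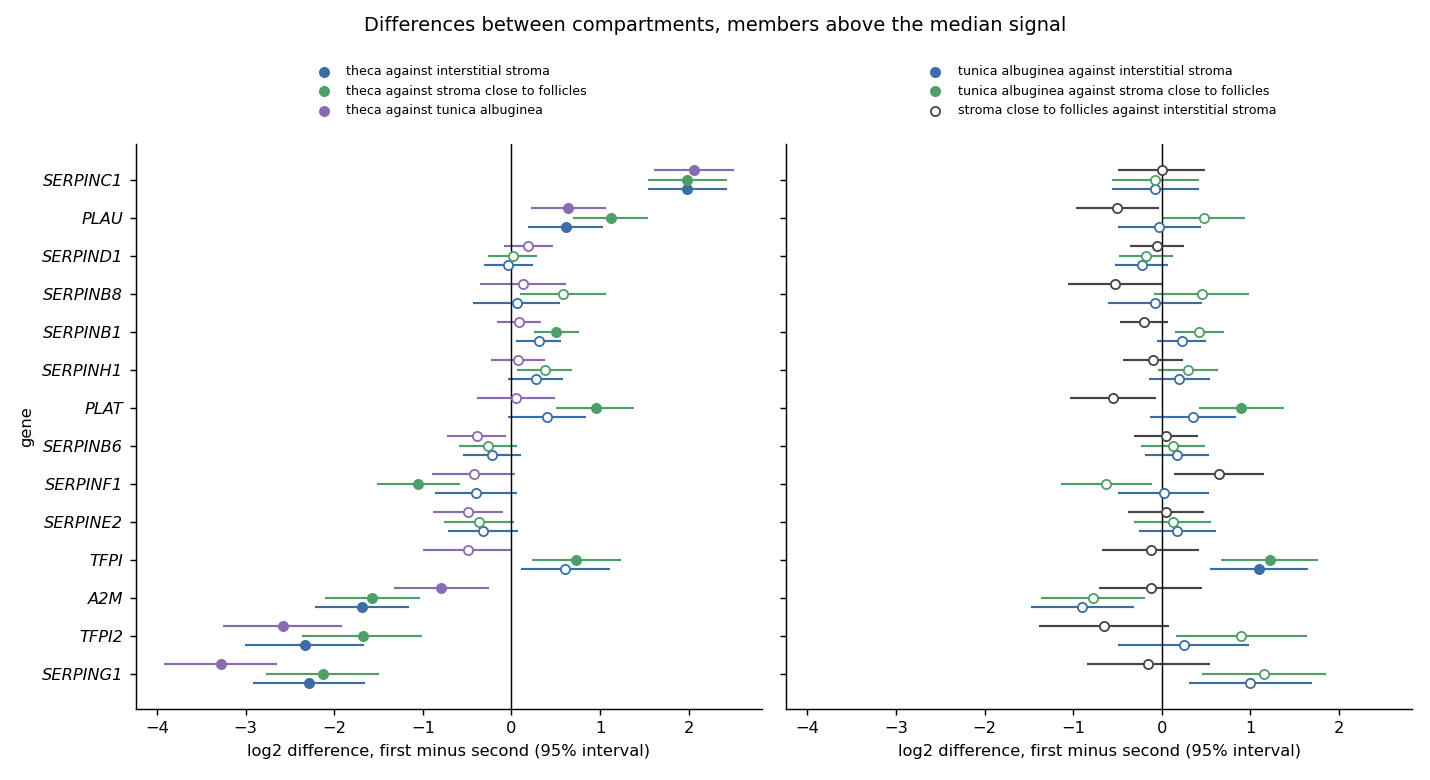
Log2 differences with 95% intervals (horizontal axis) of the 14 members above the array median, theca against each laser-captured compartment on the left and the laser-captured compartments against each other on the right; filled points passed at an adjusted p below 0.05. SERPINC1 lies to the right and SERPING1, TFPI2 and A2M to the left of 0 in all 3 comparisons with theca, and on the right TFPI and PLAT alone have filled points.

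The partners of these proteins were described by lists. Of 7 plasminogen receptors and cofactors, 3 were higher in theca than the laser-captured mean and 1 lower, with a median of 0.18. S100A10 and ANXA2, which together form a cell-surface receptor for plasminogen and PLAT, had means of 9.15 and 8.78 in theca against 7.65 to 8.15 and 7.50 to 8.0 elsewhere (differences 1.23 ± 0.15 and 1.03 ± 0.09, adjusted p = 2.9e-06 and 4e-08). PLGRKT, a plasminogen receptor of the cell membrane, was higher by 1.32 ± 0.16 (adjusted p = 4e-06). The background for calls against this mean was 19.6% higher and 22.2% lower.

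Of 8 measured receptors and helpers that clear protease and inhibitor complexes, 4 were higher in theca and 3 lower (median 0.23). LRP1, the endocytic receptor for A2M and for activator and serpin complexes, was lower in theca (6.47) than elsewhere (8.03 to 8.57) by -1.79 ± 0.11 (adjusted p = 1.2e-09). LRPAP1, its chaperone, was higher (6.13 against 4.25 to 4.88; difference 1.57 ± 0.15, adjusted p = 2.7e-07). LRP8 was higher by 1.58 ± 0.19 (adjusted p = 3.3e-06). SORL1 was lower than the laser-captured mean by -1.05 ± 0.16 (adjusted p = 3.6e-05), but theca against stroma close to follicles was not called (-0.525 ± 0.20, adjusted p = 0.059). SORL1 was also higher in tunica albuginea than in stroma close to follicles, by 1.30 ± 0.22 (adjusted p = 0.0023). Of 4 protease-activated receptors only F2RL2 passed (0.93 ± 0.21, adjusted p = 0.0014), while the thrombin receptor F2R had means of 7.13 to 7.45 and was not called (F test adjusted p = 0.66).

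Of 20 coagulation genes, 3 were higher and 3 lower in theca (median -0.04), and 17 or 18 had means below 4.1 in each compartment. Tissue factor (F3), the starter of coagulation that TFPI restrains, was lower in theca (4.03) than elsewhere (4.80 to 5.17) by -0.96 ± 0.18 (adjusted p = 0.0004). Thrombomodulin (THBD), the endothelial receptor that turns thrombin to an anticoagulant role, was lower than the laser-captured mean by -0.93 ± 0.24 (adjusted p = 0.0037). Its means were 3.6 in theca and 4.2 to 4.8 elsewhere, and theca against tunica albuginea was not called (-0.6 ± 0.30, adjusted p = 0.14). F8 was higher in theca by 1.33 ± 0.13 (adjusted p = 2e-07). Protein S (PROS1) had its means in the order of those of TFPI, with its lowest mean, 5.88, in stroma close to follicles and 7.30 in tunica albuginea (difference 1.43 ± 0.19, adjusted p = 0.00022).

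Of 19 other protease inhibitors, 2 were higher and 6 lower in theca (median -0.10). The inter-alpha-trypsin inhibitor heavy chains ITIH5 (3.48 in theca against 6.65 to 8.05) and ITIH4 (3.35 against 5.43 to 5.97) differed by -3.67 ± 0.14 (adjusted p = 1.6e-12) and -2.34 ± 0.13 (adjusted p = 2.3e-10), and WFDC1 by -0.95 ± 0.13 (adjusted p = 1.8e-05). Of 12 measured target or partner proteases and related factors, 2 were higher and 4 lower (median -0.10). The growth factor HGF, which is built like plasminogen, was at 2.97 in theca and 5.13 to 7.13 elsewhere (difference -3.18 ± 0.24, adjusted p = 1.2e-08). The serine protease HTRA3 was lower by -2.89 ± 0.14 (adjusted p = 4.6e-11). PRSS23 was higher in theca, by 1.96 ± 0.16 (adjusted p = 2.1e-08). HTRA1 exceeded the laser-captured mean by 0.53 ± 0.09 (adjusted p = 0.0002), but its highest mean was in tunica albuginea. It had 8.45 there and 8.3 in theca, and that pair was not called (limma adjusted p = 0.37). Tunica albuginea exceeded stroma close to follicles in HTRA1 by 1.15 ± 0.13 (adjusted p = 6.4e-05).

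**Figure D5:**
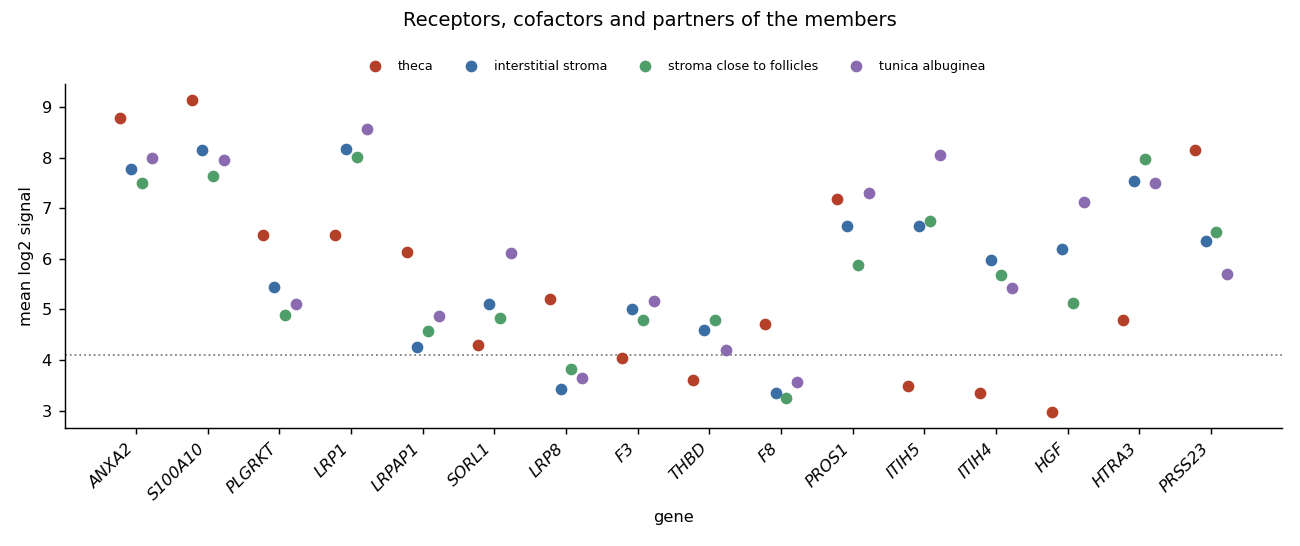
Mean log2 signal (vertical axis) of 16 receptors, cofactors, inhibitors and proteases related to the members, by compartment; the dotted line is 4.1. LRP1, ITIH5, ITIH4, HGF and HTRA3 have their lowest mean in theca, and ANXA2, S100A10, PLGRKT, LRPAP1 and PRSS23 their highest.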

How the data were processed

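Total RNA was amplified with a whole-transcriptome system and hybridised to 1 single-colour array per sample, per the labels' protocols. The deposited values are log2 signals made with RMA and Partek 6.5, per the submitters' processing notes. They run from 1 to 13.2 in steps of 0.1. RMA includes quantile normalization, so a change shared by most of the genes is hidden. The genome build is not given in the sources used here, and the scanner's detection calls were not used here. Groups came from the sample titles.

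The deposited values were fitted in limma 3.58.1 (R 4.3.3) with 1 mean per compartment over 18 arrays, two-sided tests and Benjamini-Hochberg adjustment over all 26773 clusters. A change was called at an adjusted p below 0.05. SE is the moderated standard error. The code of the test was run on simulated arrays with independent noise and few changed clusters. That check does not cover pools, shared animals or unequal spreads. The 34 members had 37 clusters; for the 3 genes with several, the brightest one on average was used. Genes that passed the F test, had a mean above 4.1 and differed by at least 1 log2 unit, and A2M, were given array by array; up to 4 genes of each partner list, by size, were named. The members and lists were chosen with earlier results of these data known. Same-numbered arrays were not treated as pairs: their deviations from group means did not all correlate above 0.1 in any 2 compartments. Interstitial stroma and tunica albuginea came nearest, with every r positive (0.0955 to 0.145). Pools may have shared animals, in which case p-values measure a spread that is in part technical. The number of arrays limits the precision. Alternatives were a filter on dim clusters, other moderation, array weights, centring on the 75th percentile, the replicate number as a block, the mean of a gene's clusters, fewer arrays in the fit, other thresholds, and leaving out each array.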

Additional observations from a re-analysis of the deposited data

Results flagged for a closer look

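In 5 of 56 groups examined (14 members in 4 compartments), 1 array lay far from the others of its group by Dixon's criterion. For independent, normal and unrounded values, chance alone meets it in about 1 group in 20. The values here are rounded to steps of 0.1 and the groups share arrays, so that rate need not hold for this count. TFPI2 read 6.6 in tunica albuginea replicate 1, against 8.1 to 8.2 in the other tunica arrays. TFPI read 5.3 in stroma close to follicles replicate 3, against 4.1 to 4.2. A2M read 9.4 in theca replicate 6, against 8.1 to 8.5 in the other theca arrays. SERPIND1 read 4.3 in theca replicate 3, against 4.0 to 4.1, and SERPINB1 read 5.9 in stroma close to follicles replicate 1, against 5.8 in the other arrays of that group; both gaps are within a few steps of the rounding of 0.1.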

How the results depend on the processing

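Of 25 called differences of the 7 named members, 19 kept their direction and their call under every alternative tried other than the stricter thresholds, and none reversed. At an adjusted p below 0.01, 19 of the 25 still passed, and 19 had a difference of at least 1 log2 unit. The 6 that lost a call under another alternative were PLAU against interstitial stroma and tunica albuginea, A2M against tunica albuginea, and TFPI in its 3 called comparisons; the cause was not tested. The F test called 11 members, and 7 when 1 log2 unit was also asked for. Theca against tunica albuginea gave 7 calls, 11 with arrays centred on the 75th percentile, 4 at an adjusted p below 0.01 and 3 at 1 log2 unit. Theca against the laser-captured mean gave 12, and 7 and 4 at these thresholds. Tunica albuginea against interstitial stroma gave 1, 0 below 0.01 and 2 in a fit of those compartments alone. Tunica albuginea against stroma close to follicles gave 2, 1 with array weights, 0 below 0.01 and 1 at 1 log2 unit. Leaving out each array in turn gave 10 to 12 members by the F test. Theca gave 4 to 7 calls against interstitial stroma, 8 to 10 against stroma close to follicles, 6 to 10 against tunica albuginea and 8 to 12 against the mean. Tunica albuginea gave 0 to 2 against interstitial stroma and 1 to 3 against stroma close to follicles, and the kinds of stroma 0. With the replicate number as a block, the F test again called 11 members, theca against the mean 8, and theca against stroma close to follicles 8; of the 25 differences only TFPI in theca against stroma close to follicles lost its call, and SERPING1 in tunica albuginea against stroma close to follicles and TFPI in theca against tunica albuginea gained one (adjusted p = 0.016 and 0.041). Replicates 5 and 6 occur only in theca, so the comparisons with theca in the blocked fit rest on theca replicates 1 to 4. Same-numbered arrays of interstitial stroma and tunica albuginea correlated weakly in their deviations from group means, at r from 0.0955 to 0.145. In the other pairs of compartments r lay between -0.0479 and 0.0763. Whether same-numbered arrays shared animals was not tested. Without the 40% dimmest clusters, 15 members were left.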

Other observations

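Theca replicate 6 stood at 1 edge of its group for many members. Of the 14 members above the array median it had the highest theca value, ties included, for 8 (A2M, PLAT, SERPINB1, SERPINB6, SERPINE2, SERPING1, TFPI and TFPI2) and the lowest for 5. Over all clusters it was the highest theca array in 23.2% and the lowest in 27.8%. The other theca arrays were highest for 1 to 3 of these members.

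The 3 serpin genes of the SERPINA3 group that the naming rule leaves out (SERPINA3-3, SERPINA3-7 and SERPINA3-8) had means of 1.98 to 3.95 and were not called by the F test, with adjusted p from 0.31 to 0.84.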
